A study of Homo sapiens with 3 samples.

Results

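The genes described here are 33 genes of the unfolded protein response of the endoplasmic reticulum (ER), taken by name from a table of 50867 genes. They are 15 chaperones and folding enzymes, 9 genes of ER-associated degradation, 5 sensors and transcription factors, and 4 genes of translocation, export and the ER membrane that belong to none of the first 3 classes. All 33 were found in the table, and all 33 passed the filter for testing, an average over the 3 libraries of at least 1 CPM (counts scaled to a common library size), as did 15132 genes in all. The RNA came from UM-UC-3 cells, a line established from a human bladder carcinoma, and was read as 3 polyA+ libraries. The group shBLACAT2 (n = 2) holds a library with shRNA 1 and a library with shRNA 2, different hairpins that target BLACAT2, a long non-coding RNA, and the group shControl (n = 1) holds a library with a scramble hairpin. All 3 lines were made by lentiviral infection with polybrene and puromycin selection. Each hairpin gave 1 library, and the labels do not say whether a line is a clone or a pool. The p-values below therefore rest on how far the shRNA 1 and shRNA 2 libraries lie apart. The test takes this spread from all tested genes together as well as from the gene itself. A gene with nearly equal hairpin libraries can therefore fail it. The lone control adds no spread of its own. With 1 library per hairpin, differences due to the hairpin, the line or technical handling cannot be told apart.

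Proteins that enter the secretory pathway fold in the ER with the help of chaperones such as HSPA5 (BiP) and of disulfide isomerases. When unfolded proteins build up, the membrane sensors ERN1 (IRE1), EIF2AK3 (PERK) and ATF6 signal to the nucleus. IRE1 splices the mRNA of XBP1, ATF6 is cut to release a transcription factor, and PERK lowers general translation while favouring ATF4. The induced genes extend the folding machinery and ER-associated degradation, which returns misfolded proteins to the proteasome. Counts per gene, as used here, do not separate the spliced from the unspliced XBP1 mRNA and do not show the cutting of ATF6 or the phosphorylation of PERK.

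The promoters of these genes are known for ER stress response elements, bound by NF-Y at CCAAT and by ATF6 or XBP1 at CCACG. RefSeq promoters (GRCh38.p14) were matched by symbol for 29 of the 33 genes, and the 250 bases before each start were searched on both strands. The element ERSE, in which CCAAT is followed after 9 free bases by CCACG, was found before 6 of the 29 genes (20.7%), against 22 of 27305 promoters of all genes (0.0806%). Its 7 matches, before 5 chaperone and cofactor genes and XBP1, are shown because HSPA5 and XBP1 were the members at least 2-fold higher with shRNA 2, with the fixed bases in capitals and each read in the orientation of the element.

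HSPA5, chr9:125241391-125241409: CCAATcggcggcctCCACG
XBP1, chr22:28800603-28800621: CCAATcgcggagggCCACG
CANX, chr5:179698778-179698796: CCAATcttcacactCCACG
HSP90B1, far match, chr12:103930216-103930234: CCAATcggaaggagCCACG
HSP90B1, near match, chr12:103930321-103930339: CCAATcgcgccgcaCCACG
CALR, chr19:12938384-12938402: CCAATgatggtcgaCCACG
CRELD2, chr22:49918554-49918572: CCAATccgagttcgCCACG

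The matches of HSPA5, XBP1, CANX and the far one of HSP90B1 lie on the strand of their gene, and those of CALR, CRELD2 and the near one of HSP90B1 on the opposite strand. They reach from 66 to 48 bases before the start in HSPA5 (minus strand) and from 52 to 34 bases before it in XBP1 (minus strand). The HSPA5 element is shown with the rest of its promoter down to the start, on the minus strand at chr9:125241344-125241419, because HSPA5 had both the highest level and the largest difference between the hairpin libraries among the 33 genes.

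HSPA5 promoter: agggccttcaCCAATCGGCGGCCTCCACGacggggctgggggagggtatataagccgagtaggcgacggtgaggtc

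A shorter form, ERSE-II, in which ATTGG is followed after 1 free base by CCACG, was found before 3 of the 29 genes (10.3%), against 14 of 27305 promoters (0.0513%). It is shown because HERPUD1, one of the genes with the highest ratios to the control in the shRNA 2 library, carried this form and no ERSE in the window. The variable base is in lower case.

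HERPUD1, chr16:56932025-56932035: ATTGGgCCACG
HYOU1, far match, chr11:119057380-119057390: ATTGGaCCACG
HYOU1, near match, chr11:119057274-119057284: ATTGGaCCACG
SDF2L1, chr22:21642114-21642124: ATTGGtCCACG

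The core of the unfolded protein response element, TGACGTGG, was found before HYOU1 alone of the 29 genes (3.45%) and before 0.667% of all promoters; it overlaps the far ERSE-II match of HYOU1. The C/EBP-ATF element core TGATGNAA was found before HERPUD1 alone, and before 3.19% of all promoters. Among the 10365 promoters of tested genes, ERSE was found in 0.135% and ERSE-II in 0.106%. The other 2 cores were found there in 0.762% and 1.33%. The starts are those of RefSeq, and the ERSE matches of CANX, HSP90B1 and CRELD2 lie inside the deposited bounds of their genes. A match describes letters in this window and shows no binding, and a gene without a match may have the element elsewhere.

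The libraries held 17670199 counts with shRNA 1, 16216947 with shRNA 2 and 16424422 in the control. The target RNA, listed as LINC00958, had 816 counts with shRNA 1, 1062 with shRNA 2 and 938 in the control. Scaled with TMM factors, this gave ratios to the control of 0.735 (95% counting interval 0.668 to 0.808) and 0.995 (0.910 to 1.09), so that no depletion was seen for shRNA 2, and each direction given for a hairpin belongs to the library that carries its label. The fibronectin gene FN1, a large secreted cargo of the ER, took 1.72% and 1.67% of the counts with the hairpins and 5.53% in the control. Of 16 epithelial and urothelial markers, 13 had more than 3 counts in each library, and KRT20, UPK1A and UPK3A did not in any. Of 8 plasma and B cell markers, which would mark professional secretory cells, JCHAIN, MZB1, CD38, MS4A1 and TNFRSF17 had at most 3 counts in every library. The list summed to 90.9 and 145 CPM with the hairpins and 162 CPM in the control, nearly all of it SDC1, which epithelial cells also express and which had 1625 and 2482 counts with the hairpins and 2446 in the control. Fibroblast markers summed to 19.7 and 12.7 CPM with the hairpins and 366 CPM in the control, of which COL1A1 was the most. Markers of other leukocytes summed to 15.8 and 32.0 CPM with the hairpins and 101 CPM in the control, mostly CSF1R, with CD3D, CD68 and NKG7 at no more than 3 counts in any library. Endothelial markers summed to 4.12 and 8.74 CPM with the hairpins and 6.20 CPM in the control. The part of these markers in the values below was not tested. In bulk RNA, fewer cells of a type and less RNA per cell cannot be told apart.

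Some of the chaperones were among the most abundant transcripts of these cells. Others ranked far lower by FPKM in the control, down to 6789th among all genes for CRELD2. Per unit of length, HSPA5 had the highest level of the 33 genes in every library, with 181 FPKM with shRNA 1 and 568 FPKM with shRNA 2, against 206 FPKM in the control. It ranked 67th and 16th among all genes of the table in the hairpin libraries and 55th in the control. CALR followed in the control with 168 FPKM, then CANX with 122 FPKM and HSP90B1 with 80.1 FPKM. The lowest levels in the control were those of DERL3, with 0.706 FPKM, and of the sensor ERN1, with 0.959 FPKM. Together the genes took 0.607% and 0.918% of all counts in the shRNA 1 and shRNA 2 libraries, and 0.640% in the control. HSPA5 alone made up 11.6% and 24.2% of these counts with the hairpins and 12.6% in the control, and without it the shares were 0.536% and 0.696% against 0.560%.

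**Figure D1:**
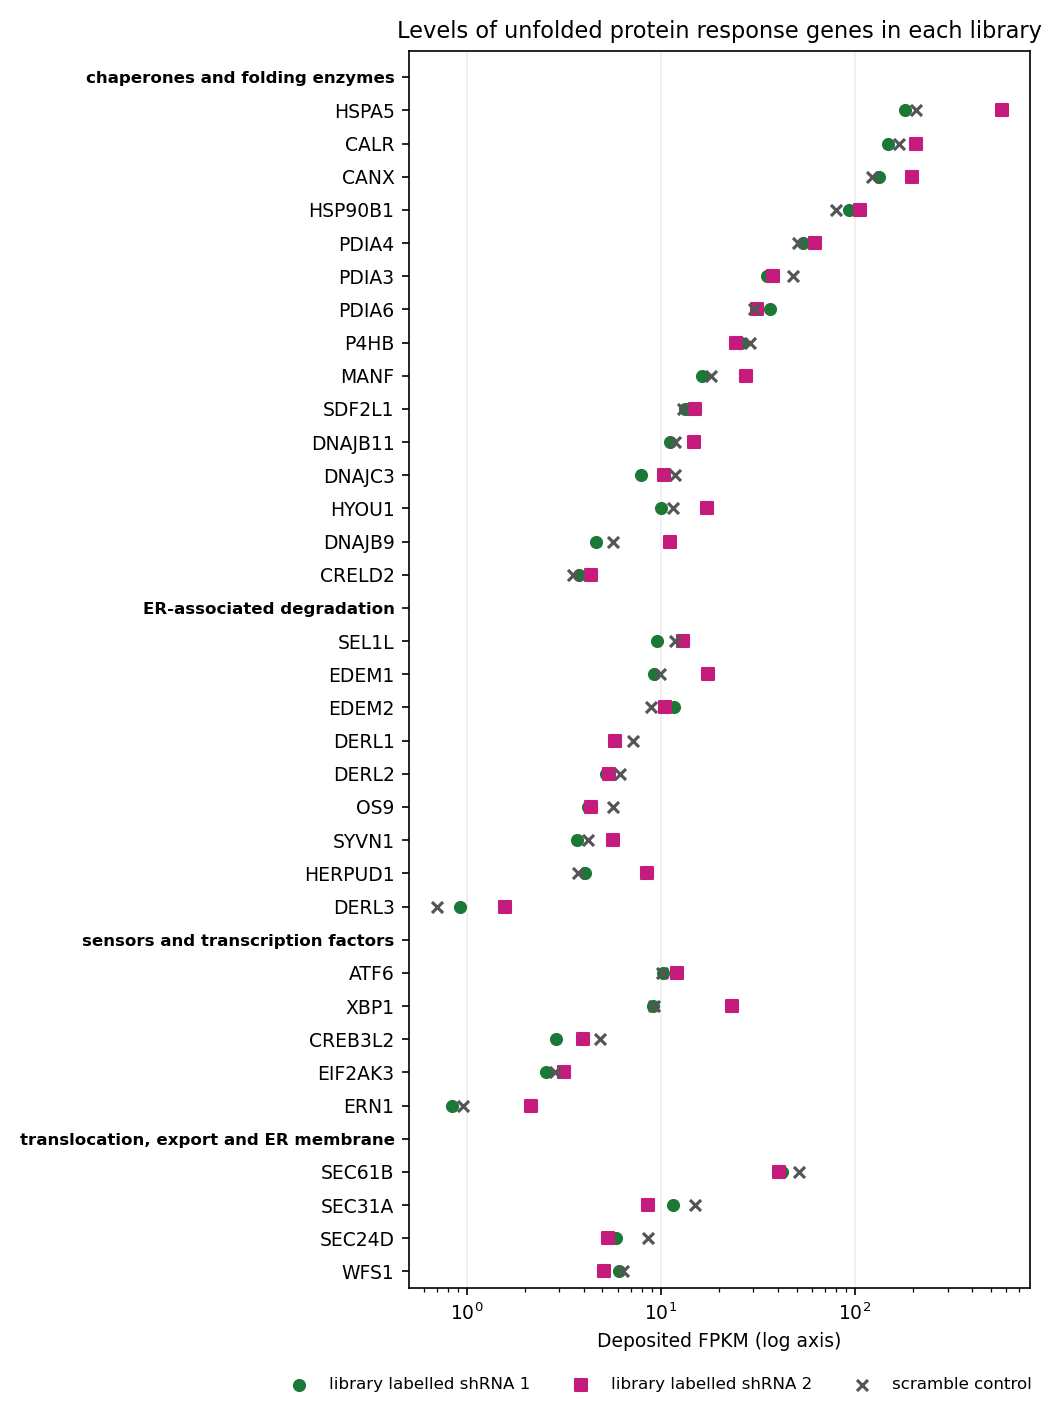
Deposited FPKM of the 33 genes (log axis) in the libraries labelled shRNA 1 (circles) and shRNA 2 (squares) and in the scramble control (crosses), 1 point per library, ordered within each class by the control level. HSPA5 stands at 568 FPKM with shRNA 2, against 181 FPKM with shRNA 1 and 206 FPKM in the control, while most genes have 3 points close together.

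The question put by the design is which genes differ when BLACAT2 is targeted, and none of the 33 genes met the criteria for it. By edgeR's quasi-likelihood test of both hairpin libraries against the control, 0 of the 33 genes passed an adjusted p of 0.05, against 6 of 15132 tested genes (0.0397%). Their adjusted p ran from 0.494 (SEC24D) to 1.00 (PDIA6), and 0 of the 33 had an unadjusted p under 0.05, against 10.2% of all tested genes. DESeq2 also passed 0 of the 33, and 531 of all genes (3.51%). By size, 0 of the 33 exceeded the control 2-fold in both hairpin libraries, where 5.29% of tested genes did, and 0 were at least 2-fold lower in both, where 4.51% were. At 1.5-fold, SEC24D alone was lower in both, against 8.54% of tested genes.

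The hairpin libraries differed from each other. With shRNA 1, 29 of the 33 genes lay below the control, against 49.5% of all tested genes. The median log2 fold was −0.31, against 0.01 for all tested genes. None reached 2-fold in either direction, where 7.92% of tested genes were that much higher and 7.38% that much lower. With shRNA 2, 19 of the 33 lay above the control, against 52.4% of all tested genes, and 14 below it, against 47.6%. Their median log2 fold was 0.06, against 0.04 for all tested genes. In that library HSPA5 and XBP1 were at least 2-fold higher (12.9% of tested genes) and SEC31A was at least 2-fold lower (8.8%). At 1.5-fold, 7 of the 33 were higher (22.9% of tested genes) and 2 were lower (17.7%). In all, 16 of the 33 lay below the control with shRNA 1 and above it with shRNA 2, against 15.4% of tested genes. Both folds share the lone control, and no test per hairpin is possible with 1 library each.

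**Figure D2:**
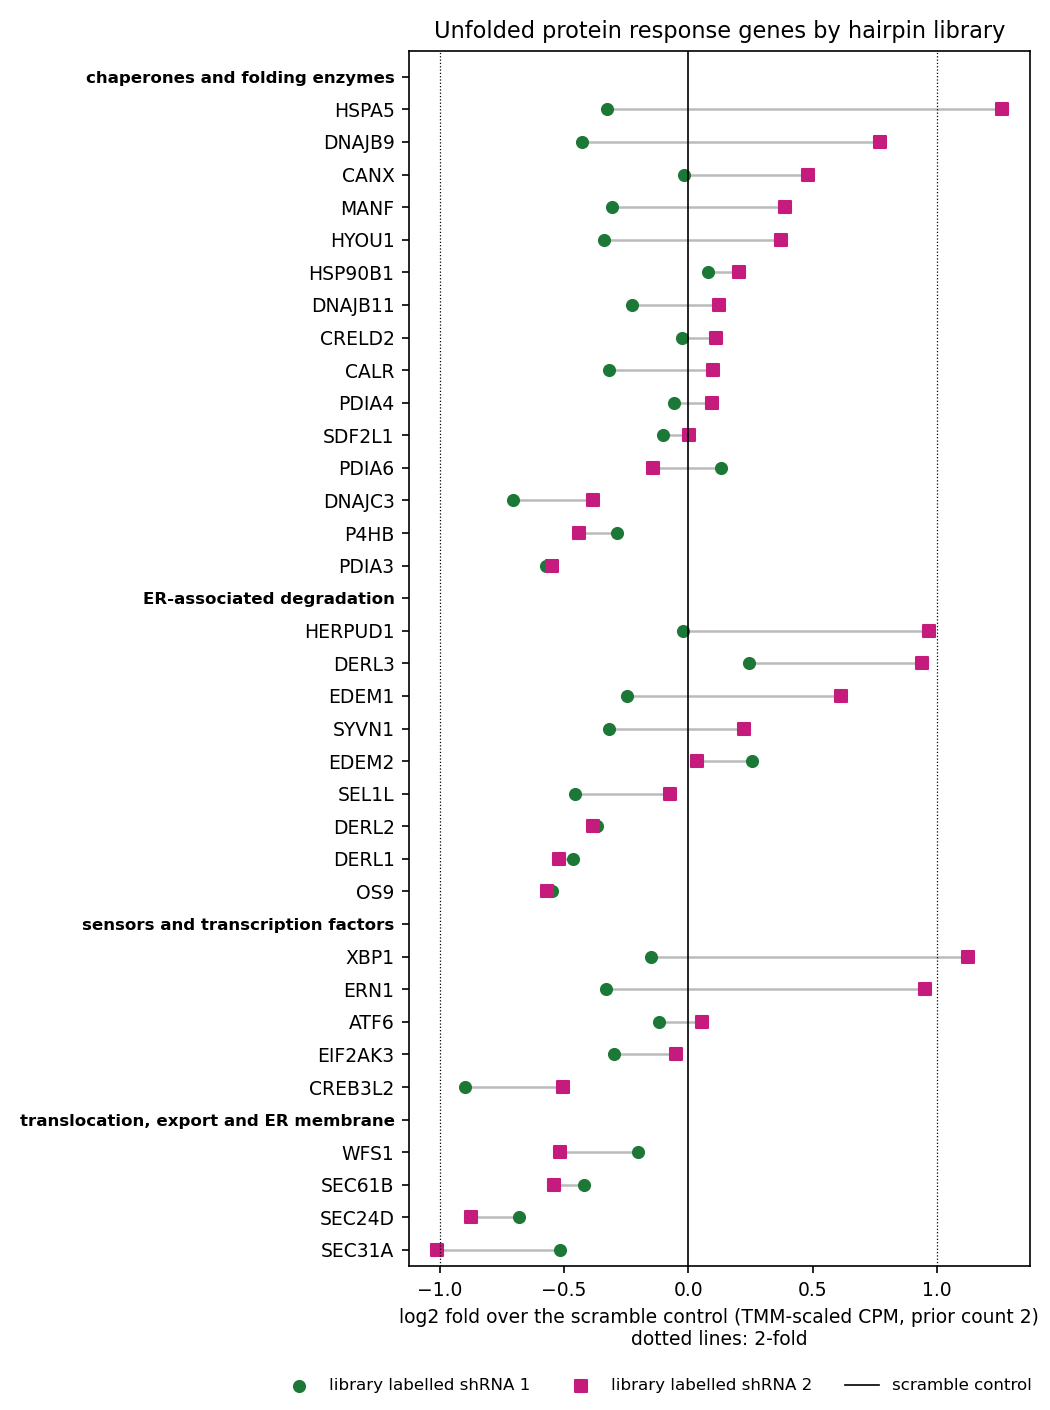
Log2 fold over the scramble control (line at 0) of each of the 33 genes in the libraries labelled shRNA 1 (circles) and shRNA 2 (squares), by class, with dotted lines at 2-fold. HSPA5 and XBP1 lie beyond 2-fold to the right and SEC31A to the left, all with shRNA 2, and the 4 genes of translocation, export and the ER membrane lie left of 0 with both hairpins.

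Among the chaperones, the difference between the hairpins was largest for HSPA5, the Hsp70 of the ER lumen that also holds the sensors inactive. HSPA5 (ENSG00000044574; hg38 chromosome 9, 125234853 to 125241330) had 12472 counts with shRNA 1 and 36004 counts with shRNA 2, against 13206 counts in the control. The ratio to the control was 0.798 (counting interval 0.779 to 0.818) with shRNA 1 and 2.40 (2.35 to 2.44) with shRNA 2. The library with shRNA 2 thus stood apart from both others, and the mean log2 fold of 0.47 ± 1.12 (SD, n = 2) was smaller than its spread (edgeR adjusted p = 0.869).

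DNAJB9 (ERdj4), a co-chaperone that brings HSPA5 to IRE1, had the same order, with 298 counts with shRNA 1, 660 with shRNA 2 and 339 in the control. Its ratios were 0.743 (counting interval 0.634 to 0.870) and 1.71, with the shRNA 2 library 2.30 times the shRNA 1 library (2.01 to 2.65). DNAJB9 overlaps THAP5 and PNPLA8 on the opposite strand. THAP5 had 812 counts with shRNA 1, 927 with shRNA 2 and 556 in the control, and because the strand setting of the counting is not stated, reads of these genes cannot be told apart.

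HYOU1 (GRP170), the nucleotide exchange factor of HSPA5, had 2810 counts with shRNA 1 and 4429 with shRNA 2, against 3006 in the control. MANF, a secreted ER stress protein that binds HSPA5, had 1011 and 1575 counts, against 1057 in the control. The log2 folds of HYOU1 were −0.34 and 0.37 and those of MANF −0.31 and 0.39, so both lay on either side of the control by similar sizes. CANX, the membrane-bound lectin chaperone, had 24193 and 32910 counts, against 20682 in the control, with log2 folds of −0.02 and 0.48. Its soluble relative CALR had 12837 and 16506 counts, against 13532, with log2 folds of −0.32 and 0.10.

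The remaining chaperones and cofactors differed less. HSP90B1 (GRP94), the Hsp90 of the ER, had 12496 and 13119 counts, against 10005 in the control, with ratios of 1.06 and 1.15. CRELD2, an ER stress-inducible protein, had ratios of 0.983 and 1.08, and SDF2L1, a cofactor of HSPA5 and its J-proteins, 0.932 and 1.00. All intervals of CRELD2 and SDF2L1 held 1, so no difference from the control was detectable for them at their depth of 312 to 533 counts. DNAJB11 (ERdj3), the J-protein that binds unfolded substrates, had ratios of 0.855 and 1.09.

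The disulfide isomerases did not share 1 order of the libraries. PDIA3 (ERp57), the partner of CANX and CALR, had 3452 counts with shRNA 1 and 3377 with shRNA 2, against 4340 in the control, with ratios of 0.672 (counting interval 0.642 to 0.703) and 0.684 (0.653 to 0.715). Both hairpin libraries lay about equally below the control, at a mean log2 fold of −0.56 ± 0.02 (SD, n = 2), which was larger than the spread between them but did not pass the test over all genes (edgeR adjusted p = 0.689). P4HB, an isomerase that is also a subunit of collagen prolyl hydroxylase, had ratios of 0.820 and 0.737. PDIA4 had 0.960 and 1.07, on the same sides of the control as HSPA5, and PDIA6 had 1.10 and 0.905, the 1 member above the control with shRNA 1 and below it with shRNA 2. DNAJC3 (p58IPK), a J-protein that in turn inhibits PERK, had 946 and 1138 counts, against 1304 in the control, with ratios of 0.613 and 0.767.

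**Figure D3:**
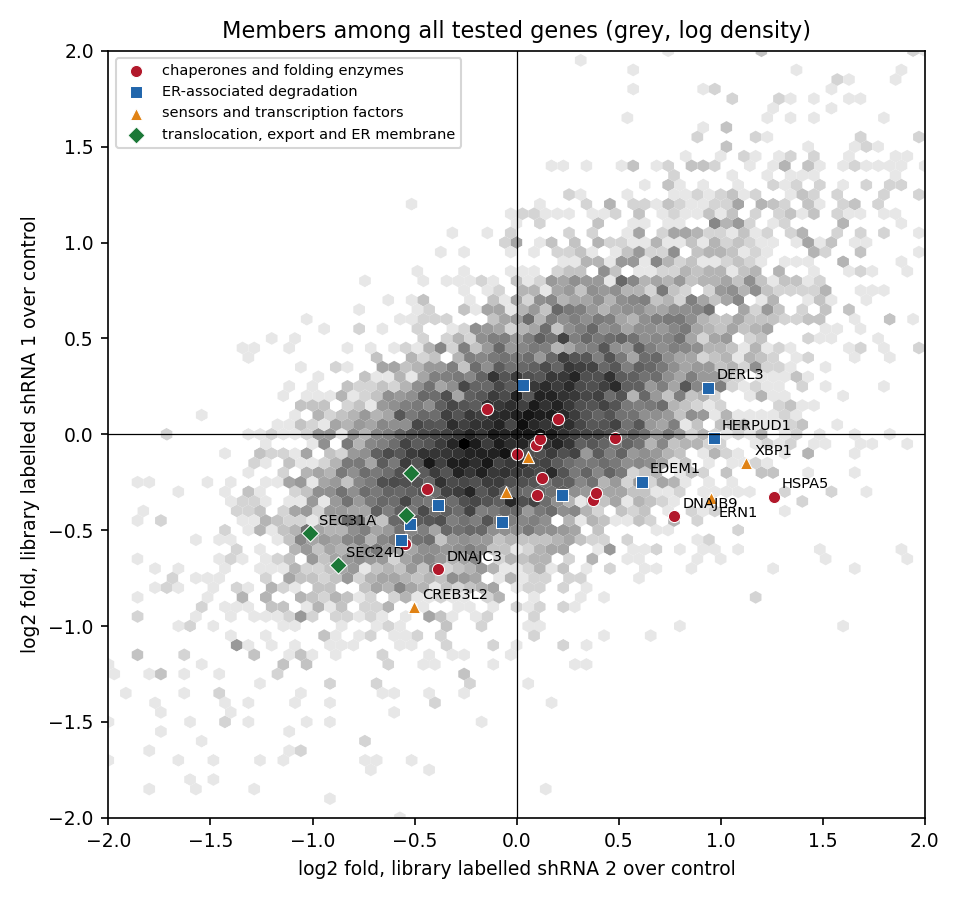
Log2 fold over the control with shRNA 2 (horizontal axis) and shRNA 1 (vertical axis) for the 33 genes, marked by class, over the density of all tested genes within the axes (grey, log scale). HSPA5, XBP1, ERN1, DNAJB9 and EDEM1 lie at the lower right, below 0 with shRNA 1 and above 0 with shRNA 2, and SEC24D, SEC31A and CREB3L2 lie below 0 on both axes; the axes share the control library.

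In ER-associated degradation, 3 genes of 9 exceeded the control at least 1.5-fold with shRNA 2, against the 22.9% of tested genes given above. HERPUD1, a membrane scaffold of the degradation complex, had a ratio to the control of 0.986 (counting interval 0.895 to 1.09) with shRNA 1 and 1.96 (1.80 to 2.13) with shRNA 2. EDEM1, which recognises trimmed glycans on misfolded proteins, had 1474 and 2573 counts, against 1478 in the control, with ratios of 0.843 and 1.53. DERL3, a derlin of the dislocation channel, had 153 and 240 counts, against 109 in the control, with ratios of 1.19 (0.922 to 1.53) and 1.93 (1.54 to 2.45). DERL3 overlaps SMARCB1 on the opposite strand, which had 1773 and 1702 counts with the hairpins and 1618 in the control.

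SYVN1 (HRD1), the ubiquitin ligase of the complex, had log2 folds of −0.32 and 0.22, and its adaptor SEL1L −0.46 and −0.07. Both were thus lowest with shRNA 1. The remaining degradation genes lay below the control with both hairpins or near it. OS9, the lectin that hands glycoproteins to SEL1L, had 1095 and 1040 counts, against 1356 in the control (ratios 0.682 and 0.674). DERL1 had ratios of 0.723 and 0.697 and DERL2 0.775 and 0.766, so that the 3 derlins did not share a direction. EDEM2, the mannosidase that starts glycan trimming, had ratios of 1.19 and 1.02. DERL2 overlaps MIS12, and SYVN1 overlaps FAU and MRPL49, so their counts are uncertain.

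Of the 3 sensors, the IRE1 branch differed most between the libraries. ERN1 (ENSG00000178607; chromosome 17, 64039142 to 64130819), which encodes IRE1, had 182 counts with shRNA 1 and 429 counts with shRNA 2, against 194 counts in the control. Its ratios were 0.793 (counting interval 0.644 to 0.975) and 1.94 (1.64 to 2.31). XBP1 (ENSG00000100219; chromosome 22, 28794555 to 28800597), whose mRNA IRE1 splices, had 1597 counts with shRNA 1 and 3724 counts with shRNA 2, against 1499 counts in the control. Its ratios were 0.900 (0.838 to 0.967) and 2.18 (2.05 to 2.32), and its log2 folds −0.15 and 1.12. In both genes the shRNA 2 library lay far above the other libraries, which were close to each other, and the mean log2 folds of 0.31 ± 0.91 for ERN1 and 0.49 ± 0.90 for XBP1 (SD, n = 2 each) were smaller than their spread (edgeR adjusted p = 0.899 and 0.841).

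ATF6 and EIF2AK3 stayed nearer to the control. ATF6 had 1435 and 1556 counts, against 1315 in the control, with ratios of 0.922 and 1.04. EIF2AK3, which encodes PERK, had 348 and 398 counts, against 362, with ratios of 0.812 and 0.966. CREB3L2 (BBF2H7), an ER-bound transcription factor that in mouse cartilage drives genes of the COPII coat, lay below the control with both hairpins. It had 869 and 1100 counts, against 1372 in the control, with ratios of 0.535 (counting interval 0.491 to 0.583) and 0.704 (0.650 to 0.763). The mean log2 fold of −0.70 ± 0.28 (SD, n = 2) was larger than its spread, with an edgeR adjusted p of 0.595.

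The 4 genes of translocation, export and the ER membrane all lay below the control with both hairpins, where 34.1% of tested genes did. SEC24D, the cargo-binding subunit of the COPII coat, had 1447 counts with shRNA 1 and 1216 with shRNA 2, against 1961 in the control. Its ratios were 0.623 (counting interval 0.582 to 0.668) and 0.545 (0.507 to 0.585). At a mean log2 fold of −0.78 ± 0.14 (SD, n = 2), SEC24D had the lowest edgeR adjusted p of the 33 genes, 0.494. SEC31A, of the outer COPII coat, had 3691 and 2519 counts, against 4459 in the control, with ratios of 0.699 and 0.496. SEC31A lies over THAP9-AS1, which had 760 and 770 counts with the hairpins and 524 in the control. SEC61B, a subunit of the translocation channel, had ratios of 0.748 and 0.687, and WFS1 (wolframin), an ER membrane protein that restrains ATF6, 0.868 and 0.698.

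For 10 of the 33 genes the smaller fold exceeded the gap between the hairpins, as it did for 37.7% of tested genes, and all 10 lay below the control: PDIA3, DNAJC3, P4HB, DERL1, DERL2, OS9, CREB3L2, SEC61B, SEC24D and SEC31A. Of these 10, PDIA3, DERL1 and SEC24D were not among the promoters searched. The others carried no ERSE or ERSE-II match. Most searched members had neither, since ERSE was found before 6 and ERSE-II before 3 of the 29.

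Set directly against each other, the shRNA 2 library lay above the shRNA 1 library for 23 of the 33 genes, against 50.2% of all tested genes. The ratio of shRNA 2 to shRNA 1 was 2 or more for 4 of them, against 8.33% of tested genes. These were HSPA5 (log2 1.59, counting interval of the ratio 2.94 to 3.06), ERN1 (ratio 2.45, 2.06 to 2.93), XBP1 (2.42, 2.29 to 2.57) and DNAJB9 (2.30, 2.01 to 2.65). At 1.5-fold, HERPUD1, EDEM1, HYOU1, DERL3 and MANF joined them, which made 9 of 33, against 16.8% of tested genes. No member was at least 2-fold lower with shRNA 2, against 4.49% of tested genes. HSPA5 stood among the highest 3.76% of tested genes by this ratio.

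The promoter elements were set beside these values as a description. The 6 genes with an ERSE all lay higher with shRNA 2 than with shRNA 1, with a median log2 difference of 0.46, against 0.25 for the 23 searched genes without one, of which 15 lay higher. They nevertheless ran from HSP90B1, at 0.13, to HSPA5, at 1.59. The 3 genes with an ERSE-II also all lay higher with shRNA 2, where 50.2% of all tested genes did. Their median difference was 0.71, against 0.29 for the 26 searched genes without one. Among all 14 tested genes of the table with an ERSE, of which the 6 are part, the median difference was 0.27. For the 11 with an ERSE-II, of which the 3 are part, it was 0.02. ERN1, DNAJB9 and EDEM1 had no match to any of the 4 elements in the window, while their levels with shRNA 2 were 2.45, 2.30 and 1.81 times those with shRNA 1.

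The wider pathway was described with 6 further lists of 129 genes, of which 122 were tested. By edgeR 0 of the 122 passed, against 0.0397% of all tested genes. DESeq2 passed 2 of the 122, CHAC1 and CREB3L1, against 3.51% of all tested genes. The list of the PERK arm and the integrated stress response holds eIF2α itself (EIF2S1), its kinases other than PERK, and genes downstream of them, and it had the highest median of these 6 lists with shRNA 2. Of these 15 genes, 2 exceeded the control 2-fold with shRNA 1, against 7.92% of tested genes, and 11 did with shRNA 2, against 12.9%. The median log2 folds were 0.22 and 1.23. EIF2S1 and the kinase genes EIF2AK1 and EIF2AK4, named after their values were seen, lay at 0.06, −0.07 and −0.10 (log2) with shRNA 2, and the kinase gene EIF2AK2 was among the 11, at 1.23. ATF4, the transcription factor of this branch, had 8069 counts with shRNA 1 and 10958 with shRNA 2, against 4264 in the control. DDIT3 (CHOP), an ATF4 target of prolonged stress, had 68 and 300 counts, against 49, with ratios of 1.17 (counting interval 0.800 to 1.73) and 5.38 (3.97 to 7.43). CHAC1, a glutathione-degrading enzyme, had ratios of 12.7 and 17.6 and was the 1 gene of the list past DESeq2's test (adjusted p = 3.3e-08; edgeR adjusted p = 0.0814). ASNS, asparagine synthetase, had ratios of 2.38 and 15.8. ATF4 targets also respond to amino acid supply, so these genes do not report on the ER alone.

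Of the 10 tested genes among the other sensors and their processing enzymes, CREB3L1 (OASIS), an ER-bound factor of collagen-producing cells, had 15 and 13 counts, against 184 in the control. It was 14.5-fold and 16.1-fold lower (edgeR adjusted p = 0.0923, DESeq2 adjusted p = 8.4e-04). The median of this list was −0.23 with shRNA 1 and 0.03 with shRNA 2. The proteases MBTPS1 and MBTPS2, which cut ATF6 and were chosen after their values were seen, lay at −0.37 and −0.16 (log2) in the shRNA 1 library and at −0.15 and 0.20 in the shRNA 2 library.

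With TMM factors, genes that build the secretory route lay mostly below the control with both hairpins, where 34.1% of all tested genes did. The 4 export and translocation members lay on the same side. Of 25 genes of translocation and glycosylation, 21 lay below the control with both, with medians of −0.20 and −0.39. SSR3, a subunit of the translocon-associated complex, was at least 2-fold lower with both, with 2323 and 1811 counts, against 4249 in the control (edgeR adjusted p = 0.271). Of 20 genes of ER export and KDEL retrieval, 15 lay below with both, with medians of −0.24 and −0.34. SURF4, a cargo receptor, had log2 folds of −0.56 and −0.57, and the GTPase gene ARF4 −0.87 and −1.35. Of 22 further degradation genes, 14 lay below with both. The segregase gene VCP had log2 folds of −0.28 and −1.22, and FAF2, which recruits VCP to the ER, −0.32 and −0.27. Of 30 further folding enzymes 18 lay below with both, and TXNDC5, an ER thioredoxin, had 26 and 29 counts, against 57 in the control.

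**Figure D4:**
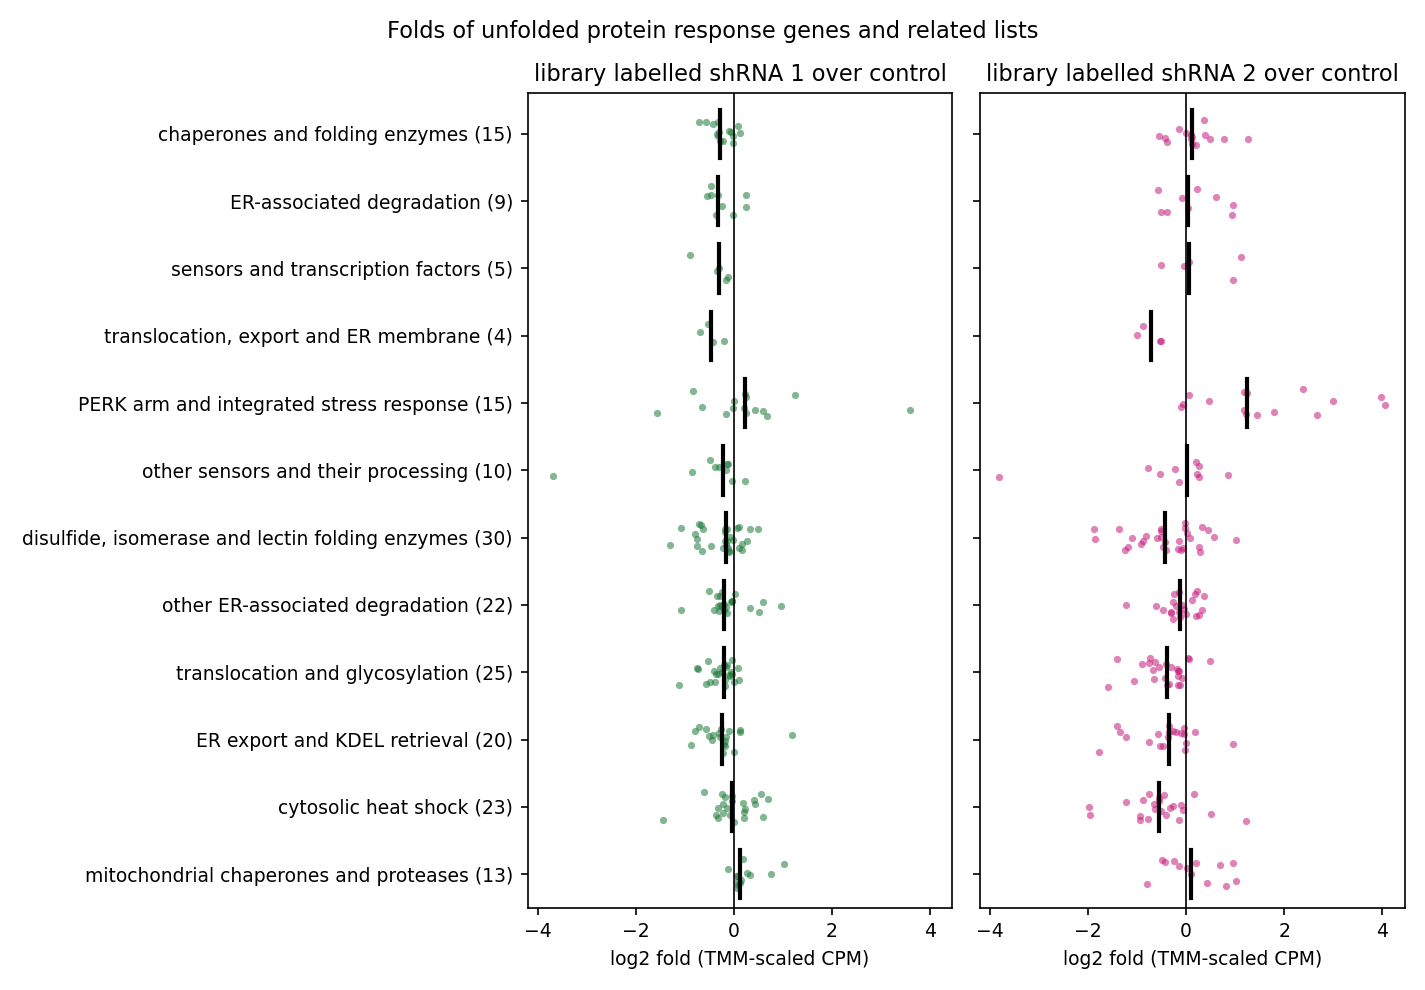
Log2 fold over the control for each gene (points) of the 4 classes of the 33 genes, 6 further pathway lists and 2 lists of other compartments, with the list median (bar) and the number of tested genes in brackets, for the libraries labelled shRNA 1 (left) and shRNA 2 (right). With shRNA 2 the PERK list has a median of 1.23 and the cytosolic heat shock list one of −0.55.

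Chaperones of other compartments gave a comparison for the ER. With shRNA 2, 20 of 23 cytosolic heat shock and chaperonin genes lay below the control, against 47.6% of all tested genes. Their median log2 fold was −0.55, against 0.11 for the 15 member chaperones and folding enzymes of the ER. With shRNA 1 the medians were −0.04 and −0.29. The 30 further folding enzymes had a median of −0.43 with shRNA 2, where 22 lay below the control, and −0.15 with shRNA 1. HSPA8, the constitutive cytosolic Hsp70, and HSP90AA1, both chosen after their values were seen, lay at −1.22 and −0.94 (log2) in the shRNA 2 library and at −0.13 and 0.56 in the shRNA 1 library. Their ER counterparts HSPA5 and HSP90B1 had 1.26 and 0.20 with shRNA 2. DNAJB4, the 1 gene of that list at least 2-fold away with both hairpins, had 364 and 241 counts, against 841 in the control (edgeR adjusted p = 0.190). The 13 mitochondrial chaperones and proteases had medians of 0.12 and 0.09, with HSPA9, the mitochondrial Hsp70, at 0.33 and 0.70 and HSPD1 at 0.77 and 0.09. These differences between lists have no test, since each hairpin has 1 library.

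Scaling moved small folds across the control. With library totals in place of TMM factors the median log2 fold of all tested genes moved to 0.14 with shRNA 1 and 0.24 with shRNA 2. The number of members below the control with shRNA 1 was then 23 of 33, against 5720 of 15132 tested genes, and the number above it with shRNA 2 was 22 of 33, against 9769 of 15132, which is close to the share of all genes. The median of the further degradation genes with shRNA 2 was then 0.08 in place of −0.13, and that of the cytosolic heat shock genes with shRNA 1 was 0.09 in place of −0.04. Below the control with both hairpins were then 11 of the 25 translocation and glycosylation genes, 11 of the 20 export genes, 8 of the 22 further degradation genes and 12 of the 30 further folding enzymes, against 3461 of all 15132 tested genes. With DESeq2's size factors the median of the other sensors with shRNA 2 was −0.01 in place of 0.03. The medians of the 4 classes kept their sign under all 3 scalings. That of ER-associated degradation with shRNA 2 was 1.3e-04 with DESeq2's size factors, however, which shows no direction.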

How the data were processed

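PolyA+ RNA of 3 UM-UC-3 libraries was sequenced after TruSeq stranded library preparation. TopHat2 2.0.9 and hg38 are named, per the submitters' processing notes, with a counting tool, strand setting and annotation not given in the sources used here. The authors deposited raw read counts and FPKM per gene. FPKM served only to order levels between genes. Of 50871 lines, 4 broken lines of 1 gene were left out. Genes averaging 1 CPM or more were fitted with edgeR 4.0.16 (TMM factors, quasi-likelihood test of both hairpin libraries against the control, two-sided, Benjamini-Hochberg adjusted over 15132 genes, 1 residual degree of freedom, which assumes for the single control the spread seen between the hairpin libraries). Log2 folds per hairpin came from TMM-scaled log2 CPM with a prior count of 2. Intervals are exact conditional binomial intervals at 95% and, like all depths, cover counting error only. Alternatives were DESeq2 1.42.0, limma 3.58.1, other scalings, filters, prior counts and fold sizes, and leaving out a hairpin. The fit was also run on simulated counts in which both hairpin libraries had the same true fold. That run does not show how the test behaves where the hairpins differ, as here. Overlapping genes come from GENCODE 29. Promoters come from RefSeq. Lists are described by counts and medians, with no list test. The genes and lists were chosen with earlier results of these data known. Named beside the 33 genes were the target and FN1, ATF4, DDIT3 and, per list, up to 4 genes past the test or 2-fold away with both hairpins, otherwise the 2 of highest mean CPM.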

Additional observations from a re-analysis of the deposited data

How the results depend on the processing

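The count of 0 members past the group test was the same under every test, filter and scaling run, and each hairpin's median kept its sign. The median with shRNA 2 was 0.0024 without the filter, however, which shows no direction. Over all genes, 0 passed without the filter (1461 at unadjusted p under 0.05) and with limma (1558), 61 with the filter at 5 CPM and 531 with DESeq2, against 6. Members at least 2-fold higher with shRNA 2 numbered 5 with library totals, against 2, and members at least 2-fold lower with shRNA 2 numbered 0 with library totals and with the filter at 5 CPM, against 1, since SEC31A stood close to 2-fold. At 1.5-fold, 7 members were higher and 2 lower with shRNA 2, 3 were lower with shRNA 1, 1 was lower with both, and 9 were higher with shRNA 2 than with shRNA 1. Leaving out either hairpin library left 0 to 2 members at least 2-fold higher and 0 to 1 lower, with no test. Some group folds near 0 turned sign. With library totals these were CALR (0.082), DNAJB11 (0.14), SDF2L1 (0.12), SYVN1 (0.15), EIF2AK3 (0.0049) and ATF6 (0.15). PDIA4 stood at −0.0091 with DESeq2's size factors, −0.012 without the filter and −0.0082 with DESeq2's test, and PDIA6 at −0.028, −0.027 and −0.027 in the same settings and −0.0058 with limma. No paired analysis was possible because the control has 1 library and no replicate number in its label.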

Other observations

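Of the further folding enzymes, 3 that act on collagen are given here, named after their values were seen and standing for no group. SERPINH1 (HSP47), the collagen chaperone of the ER, had 3444 counts with shRNA 1 and 1436 with shRNA 2, against 4585 in the control. FKBP10, a prolyl isomerase that acts on collagen, had 1171 and 1280 counts, against 1613, and FKBP14 had 515 and 300 counts, against 688. Of the cargo genes, COL1A1, a collagen gene, had 328 and 162 counts, against 5253 in the control.

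KDEL receptors return escaped ER chaperones from the Golgi. KDELR3 had 606 counts with shRNA 1 and 291 with shRNA 2, against 886 in the control. KDELR2 had 3574 and 2722, against 4032, and KDELR1 had 3124 and 2675, against 3265. These counts are not scaled, and the control had the smallest library size after TMM scaling. PPP1R15A (GADD34), which restores translation after PERK signalling, had 781 counts with shRNA 1 and 4115 with shRNA 2, against 1042 in the control, the same order as HSPA5. TRIB3, a pseudokinase of the CHOP branch, had 1049 and 5905 counts, against 652. These genes were chosen after their values were seen, and none passed edgeR's test over all genes.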
